A study of Homo sapiens with 4 samples.

Results

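The 8 folate one-carbon enzymes described here were SHMT1, SHMT2, MTHFD1, MTHFD2, MTHFD1L, TYMS, MAT2A and AHCY. Their mRNA was measured by RNA sequencing in cells that the study names as HepG2, with and without a targeted TXNDC9 gene. They were chosen by gene symbol from what the enzymes do, with earlier results of these data known. Each symbol stood on 1 of the 57979 lines of the expression table that held values. All 8 passed the filter on low values and were among the 13246 genes tested. By its own description, the study sequenced polyadenylated RNA from 2 libraries of wild-type HepG2 cells (WT). It also sequenced 2 libraries of HepG2 cells carrying a TXNDC9 knockout made with CRISPR-Cas9 (KO). All cells were grown in DMEM with serum. HepG2 is a human liver cancer cell line, and TXNDC9 encodes a thioredoxin domain protein. The guide RNAs were delivered with Cas9 by lentivirus and the infected cells were sorted, while control cells for the protein blot received the vector alone. Whether the sequenced knockout cells were a clone or a pool is not given in the sources used here. Nothing in the labels says that the libraries of a group came from separate cultures, so the p-values measure the spread between these libraries only.

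One-carbon metabolism carries single carbon units on tetrahydrofolate, a form of the vitamin folate. Serine is the main donor, and the units are spent on purines, on thymidylate for DNA, and on remaking methionine from homocysteine. Methionine is turned into S-adenosylmethionine, the methyl donor of the cell, whose used form is broken down again to homocysteine. The pathway runs both in the cytosol and in mitochondria, and in liver it also feeds from glycine, choline and betaine.

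MAT2A was the only member that passed the test at a 2-fold change, so the sites it is known for are shown here. MAT2A makes S-adenosylmethionine outside the adult liver, and its transcript carries hairpins bound by the RNA methyltransferase METTL16, a known sensor of the methyl donor. The canonical MAT2A transcript in GENCODE release 44 has 2817 nt, with coding bases 121 to 1308. A search of its sense strand for TACAGAGAA and TACAGAAAA found 6 matches, and every match lay in the 3′ UTR. The stretches below have 29 bases each, are read from hg38 on the plus strand, and have the 9 motif bases in capitals. From site 1 to site 6 they lie at chr2:85543802-85543830, chr2:85544589-85544617, chr2:85544774-85544802, chr2:85544889-85544917, chr2:85545004-85545032 and chr2:85545112-85545140.
MAT2A site 1: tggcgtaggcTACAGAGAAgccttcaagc
MAT2A site 2: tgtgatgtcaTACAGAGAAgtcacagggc
MAT2A site 3: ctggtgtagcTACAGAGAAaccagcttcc
MAT2A site 4: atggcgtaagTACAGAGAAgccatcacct
MAT2A site 5: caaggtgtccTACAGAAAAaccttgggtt
MAT2A site 6: gctggtgtggTACAGAGAAgccagcttgt

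Of the 13112 canonical transcripts searched in the same way, 1047 (7.99%) held at least 1 match. The most matches in any other transcript was 4, and 0 other members held one. A match is a run of letters and was not tested for binding.

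Values are FPKM, fragments scaled to the length of the transcript and to the mapped fragments of the library, as the authors deposited them. Tests were made with limma on log2(FPKM + 0.1), and a fold change on this scale understates the change of low genes. A gene was called lower or higher in KO at a Benjamini-Hochberg adjusted p under 0.01 over all tested genes together with a fold change of at least 2. By this rule 2021 genes (15.3%) were lower and 1885 (14.2%) were higher. The summed FPKM of a library was 805816 and 971102 in WT and 535973 and 568279 in KO, so values were also rescaled to 1 common total per library (TPM). Over the tested genes the log2 fold change had a median of -0.088 before rescaling and of 0.59 after it. Fold changes also rose with transcript length (Spearman's rho 0.495 across genes, which are not independent replicates) and fell with GC content (rho -0.462). A curve of transcript length and GC content was therefore taken off each library as an alternative, called the length and GC correction below. TXNDC9 itself stood at 35.1 and 37.3 FPKM in WT and at 21.9 and 27.6 FPKM in KO. Its log2 fold change was -0.55 (SE 0.14, limma adjusted p = 0.0145), so it was not called lower, and after rescaling to TPM it was 0.12. FPKM over a whole gene does not show whether a short insertion or deletion removed the protein. By western blot the paper reports less TXNDC9 protein in sorted HepG2 cells that carried Cas9 and the guide RNA.

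The cell line label was checked against markers. None of 8 hepatocyte markers (ALB, AFP, APOA1, APOB, TTR, SERPINA1, FGB and HNF4A) passed 0.449 FPKM in any library, and APOA1 was listed at 0 in every library. Their summed level was 0.351 and 0.716 FPKM in WT and 0.0479 and 0.121 FPKM in KO. The defining genes of the labelled liver line are thus near 0 in both groups. These values do not bear out the HepG2 label, and the identity of the cells is not settled here. Of 3 fibroblast markers, 2 passed 1 FPKM in at least 1 library and COL1A2 was listed at 0 throughout, with a summed level of 20.2 to 32.5 FPKM. Of 3 endothelial markers 1 passed 1 FPKM, with sums of 0.803 and 1.22 in WT and 4.41 and 3.42 in KO. Of 3 leukocyte markers 1 passed (sums 3.42 to 7.04 FPKM), as did 1 of 3 squamous epithelium markers (sums 0.0422 to 1.07 FPKM). The part of these differences in the results below was not tested. In bulk RNA, fewer cells of a kind and less RNA per cell cannot be told apart.

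As a group the 8 enzymes did not move one way. At the rule above 0 of 8 were called lower, against 15.3% of all tested genes, and 1 of 8 (12.5%) was called higher, against 14.2%. At an unadjusted limma p under 0.05, 3 (37.5%) were lower and 3 (37.5%) higher, against 38.3% and 33.0% of all tested genes. With an adjusted p under 0.01 at any fold change, 2 members were lower, against 27.1% of all tested genes, and 2 were higher, against 23.7%. Both KO values lay below both WT values for 4 members (45.9% of all genes) and above them for 3 (40.1% of all genes). The median log2 fold change of the members was -0.091, against -0.088 over all tested genes, and after rescaling to TPM both medians were 0.59. Summed FPKM over the members was 805 and 843 in WT and 819.9 and 862 in KO, so the sums of the groups overlapped. As a share of all FPKM in the library, the members took 0.0999% and 0.0868% in WT and 0.153% and 0.152% in KO.

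**Figure D1:**
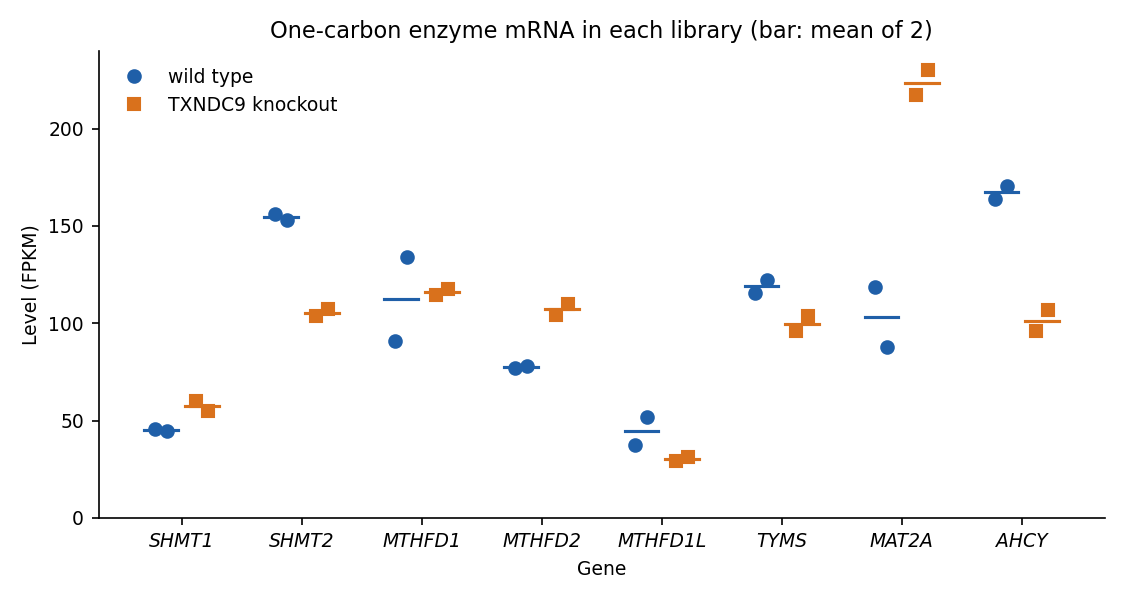
FPKM of the 8 enzymes in each of the 4 libraries, with 1 point per library and WT and KO in separate colours. MAT2A stands apart with 217 and 230.0 FPKM in KO against 119 and 88.0 in WT, and MTHFD1 is the member whose groups overlap.

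Serine hydroxymethyltransferases open the pathway by moving a carbon from serine to tetrahydrofolate, SHMT1 in the cytosol and SHMT2 mainly in mitochondria. SHMT2 (ENSG00000182199, chromosome 12, 57229573 to 57234935, plus strand, 12 exons) had 156 and 153 FPKM in WT and 104 and 107 FPKM in KO. Both KO libraries were below both WT libraries, with little spread inside either group. The log2 fold change was -0.55 (SE 0.11, 95% interval -0.81 to -0.29, limma adjusted p = 0.00536), a 1.47-fold difference that did not reach 2-fold. It was 0.13 after rescaling to TPM and -0.059 after the length and GC correction (limma adjusted p = 0.533).

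SHMT1 (ENSG00000176974, chromosome 17, 18327860 to 18363563, minus strand, 12 exons) had 45.6 and 44.6 FPKM in WT and 59.8 and 54.7 FPKM in KO. Here the KO libraries were the higher ones and the groups did not overlap. The log2 fold change was 0.34 (SE 0.10, 95% interval 0.087 to 0.60, limma adjusted p = 0.0277), so SHMT1 did not pass the test. After rescaling to TPM it was called higher, at 1.02 (limma adjusted p = 7.78e-04), as were 33.1% of all tested genes. After the length and GC correction it stood at 0.53 (limma adjusted p = 0.00834), below 2-fold.

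A ratio of a pair of genes inside 1 library is free of that library's scale. The SHMT2 to SHMT1 ratio was 3.42 and 3.44 in WT and 1.73 and 1.96 in KO. The mitochondrial enzyme thus had the higher level in every library, by a smaller margin in KO, and the groups did not overlap. The log2 difference of the ratio was -0.90 (1.86-fold) and, after the length and GC correction, -0.59. An exact two-sided permutation test of 2 against 2 libraries cannot go below p = 0.333, which was the value for each of the 4 ratios examined, also after adjustment over them.

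MTHFD1 is the cytosolic enzyme with synthetase, cyclohydrolase and dehydrogenase activities, which interconverts the one-carbon forms of folate. MTHFD1 (ENSG00000100714, chromosome 14, 64388031 to 64463457, plus strand, 28 exons) had 90.9 and 134 FPKM in WT and 114 and 118 FPKM in KO. Both KO values lay between the WT values, so the groups overlapped, and the WT pair had the widest spread of any member (SD 30.5 FPKM, n = 2). MTHFD1 differed by 0.072 on the log2 scale (SE 0.20, 95% interval -0.41 to 0.56, limma adjusted p = 0.762), an interval that takes in changes of either sign. It was 0.75 after rescaling to TPM and -0.045 after the length and GC correction.

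MTHFD2 is the mitochondrial dehydrogenase and cyclohydrolase, known as an enzyme of embryonic and tumour cells that is low in most adult tissues. MTHFD2 (ENSG00000065911, chromosome 2, 74186172 to 74217565, plus strand, 8 exons) had 77.0 and 77.8 FPKM in WT and 104 and 110.1 FPKM in KO. Both KO libraries were above both WT libraries, and the WT values were close to each other (SD 0.561 FPKM, n = 2). Its log2 fold change was 0.47 (SE 0.10, 95% interval 0.21 to 0.72, limma adjusted p = 0.00912), a 1.38-fold difference that did not reach 2-fold. After rescaling to TPM MTHFD2 was called higher at 1.15 (limma adjusted p = 2.27e-04), as were 33.1% of all tested genes, and after the length and GC correction it stood at -0.11 (limma adjusted p = 0.198). MTHFD2 has the longest canonical transcript among the members, with 4403 nt, and the lowest GC content, 41.0%.

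MTHFD1L is the mitochondrial synthetase that releases formate to the cytosol. MTHFD1L (ENSG00000120254, chromosome 6, 150865679 to 151101887, plus strand, 28 exons) had 37.5 and 52.1 FPKM in WT and 29.1 and 31.4 FPKM in KO. Both KO libraries were below the lower WT library, and the WT pair was again the more spread one (SD 10.3 against 1.64 FPKM, n = 2 each). The log2 fold change was -0.55 (SE 0.17, 95% interval -0.97 to -0.12, limma adjusted p = 0.0320), so MTHFD1L did not pass the test. It was 0.13 after rescaling to TPM and -0.61 after the length and GC correction (limma adjusted p = 0.0253). Without WT replicate 1 it stood at -0.78 (limma adjusted p = 9.18e-04) and without WT replicate 2 at -0.31, still under 2-fold.

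Relative to MTHFD1 in the same library, both mitochondrial enzymes were lower in level in every library. The MTHFD1L to MTHFD1 ratio was 0.413 and 0.388 in WT and 0.254 and 0.266 in KO. Its log2 difference was -0.62 (1.54-fold), and -0.57 after the length and GC correction. The WT libraries, which differed in both genes, were close in this ratio, and the groups did not overlap. The MTHFD2 to MTHFD1 ratio was 0.847 and 0.580 in WT and 0.910 and 0.935 in KO. Its log2 difference of 0.40 was -0.065 after the length and GC correction, 0.67 without WT replicate 1 and 0.12 without WT replicate 2.

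TYMS, thymidylate synthase, uses the carbon of methylene tetrahydrofolate to make thymidylate. TYMS (ENSG00000176890, chromosome 18, 657653 to 673578, plus strand, 7 exons) had 116 and 122 FPKM in WT and 95.8 and 104 FPKM in KO. Both KO libraries were below both WT libraries by a small margin. The difference on the log2 scale was -0.25 (SE 0.11, 95% interval -0.53 to 0.021, limma adjusted p = 0.0879), so TYMS did not pass the test, and it was 0.43 after rescaling to TPM and 0.10 after the length and GC correction. The antisense neighbour ENOSF1 shares 967 exon bases with TYMS, 60.0% of the canonical TYMS transcript, and had 47.0 and 65.8 FPKM in WT and 43.5 and 44.6 in KO. The strand setting of the counting is not given in the sources used here, so reads of the shared bases cannot be assigned.

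**Figure D2:**
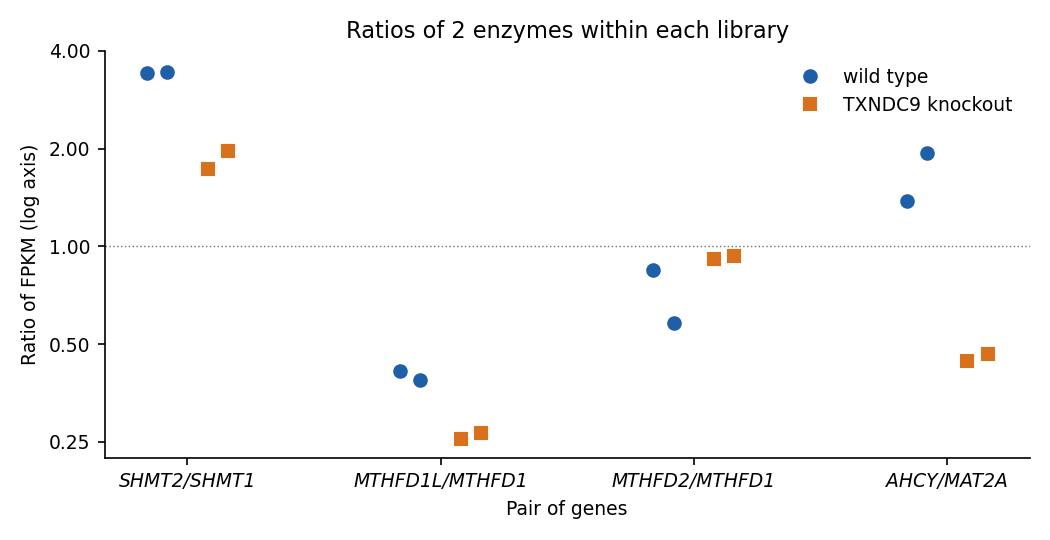
Ratio of the FPKM of a pair of genes inside each library (log axis), for 4 pairs, with 1 point per WT or KO library. The groups do not overlap for any pair, and the widest separation is in AHCY to MAT2A, from 1.38 and 1.94 in WT to 0.442 and 0.464 in KO.

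MAT2A and AHCY stand on either side of the methyl transfer step. MAT2A (ENSG00000168906, chromosome 2, 85539168 to 85545281, plus strand, 9 exons) had 119 and 88.0 FPKM in WT and 217 and 230.0 FPKM in KO. Both KO libraries were far above the higher WT library. MAT2A rose 2.19-fold in KO (log2 fold change 1.13, SE 0.17, 95% interval 0.71 to 1.55, limma adjusted p = 0.00220). The rise was 1.81 on the log2 scale after rescaling to TPM and 1.02 after the length and GC correction. MAT2A was called higher under both, as were 33.1% and 6.36% of all tested genes. With WT replicate 2 left out the log2 fold change was 0.91, under 2-fold, and with WT replicate 1 left out it was 1.34. Without KO replicate 1 or 2 the limma adjusted p of MAT2A missed the threshold, at 0.0359 and 0.0394, as it did without the filter on low values, at 0.0122. Centring each library on its median left MAT2A just under 2-fold, at 0.99.

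The 3′ end of MAT2A faces the gene GGCX on the opposite strand. Exons of the pair share 562 bases, 20.0% of the canonical MAT2A transcript, and sites 3 to 6 lie in that stretch while sites 1 and 2 do not. GGCX had 30.4 and 42.4 FPKM in WT and 25.6 and 26.2 FPKM in KO, both KO values below the WT values. METTL16, named here after its values were seen, had 32.2 and 45.5 FPKM in WT and 17.9 and 16.9 FPKM in KO. METTL16 fell 2.19-fold (log2 fold change -1.13, SE 0.18, limma adjusted p = 0.00256), with -0.45 after rescaling to TPM (limma adjusted p = 0.0214, not called) and -1.67 after the length and GC correction (limma adjusted p = 0.00209). Both KO libraries had more MAT2A and less METTL16 than both WT libraries, and no relation between them was tested. Of all tested genes, 40.1% had both KO values above both WT values and 45.9% had them below.

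AHCY hydrolyses S-adenosylhomocysteine, the product left by methyl transfer. AHCY (ENSG00000101444, chromosome 20, 34280268 to 34311802, minus strand, 10 exons) had 164 and 171 FPKM in WT and 96.0 and 107 FPKM in KO. Both KO libraries were below both WT libraries. For AHCY the log2 fold change was -0.72 (SE 0.12, 95% interval -1.01 to -0.44, limma adjusted p = 0.00281), the lowest of the members and a 1.65-fold difference that did not reach 2-fold. It was -0.26 after the length and GC correction and -0.043 after rescaling to TPM. The pseudogene AHCYP8 was listed at 7.01 and 3.02 FPKM in WT and at 0 and 12.9 FPKM in KO, and reads of a near-identical copy can be split between the genes.

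The AHCY to MAT2A ratio was 1.38 and 1.94 in WT and 0.442 and 0.464 in KO. AHCY thus had the higher level in both WT libraries and the lower level in both KO libraries. The log2 difference was -1.85 (3.61-fold), and -1.28 after the length and GC correction. Leaving out 1 library at a time gave -2.10 to -1.61.

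**Figure D3:**
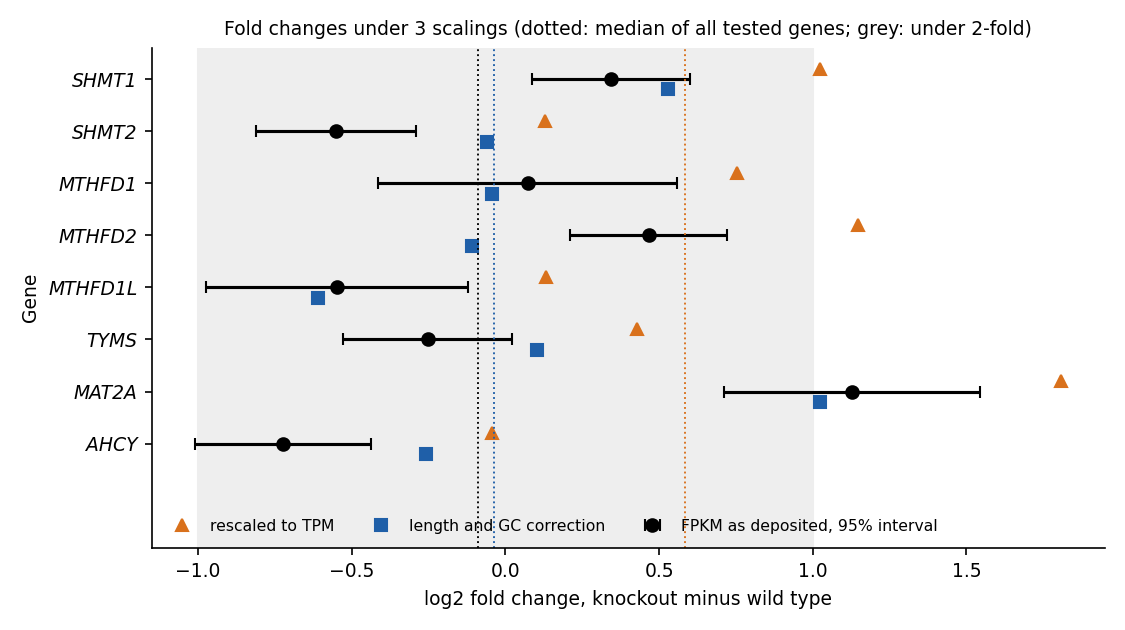
Log2 fold change of KO against WT for each member on log2(FPKM + 0.1) with its 95% interval, beside the values after rescaling to TPM and after the length and GC correction. MAT2A is the member above 1 in all of them, while the sign of SHMT2, MTHFD1L, TYMS, MTHFD1 and MTHFD2 depends on the scaling or the correction.

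The order of the levels, per length of transcript, also differed between the groups. In WT the order of mean FPKM was AHCY, SHMT2, TYMS, MTHFD1, MAT2A, MTHFD2, SHMT1 and MTHFD1L. The ranges of TYMS and MTHFD1, of MTHFD1 and MAT2A, and of SHMT1 and MTHFD1L overlapped, so these neighbours did not differ beyond their spread. In KO it was MAT2A, MTHFD1, MTHFD2, SHMT2, AHCY, TYMS, SHMT1 and MTHFD1L, and the ranges overlapped between neighbours from MTHFD2 to TYMS. MAT2A therefore led in KO. In WT it was below AHCY and SHMT2 in both libraries, and its range overlapped those of TYMS and MTHFD1. By the mean over all 4 libraries, each member was above at least 76.5% of the tested genes, with MTHFD1L the lowest and MAT2A, above 94.9%, the highest.

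Transcript length moved with the fold changes, and the part of it in the members' values was not tested further than by the correction. All genes were cut into 10 bins of about equal size by canonical length. The median log2 fold change of a bin was -0.63 in the bin that holds TYMS (1351 to 1841 nt), -0.47 in that of SHMT2 and AHCY (1842 to 2309 nt) and 0.41 in that of MTHFD2 (4305 to 5322 nt). SHMT2 and AHCY, with 2157 and 2150 nt, stood at -0.55 and -0.72, and MTHFD2 at 0.47. Those 3 members thus lay near the genes of their own length, AHCY somewhat below. Their GC content was 56.1%, 55.5% and 41.0%, and bins of length do not separate length from GC content. MAT2A (2817 nt) stood at 1.13 in a bin with a median of -0.23 and an upper quartile of 0.27. SHMT1, in the same bin with 2527 nt, stood at 0.34, and MTHFD1L (3451 nt) at -0.55 in a bin with a median of 0.0051 and a lower quartile of -0.48.

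**Figure D4:**
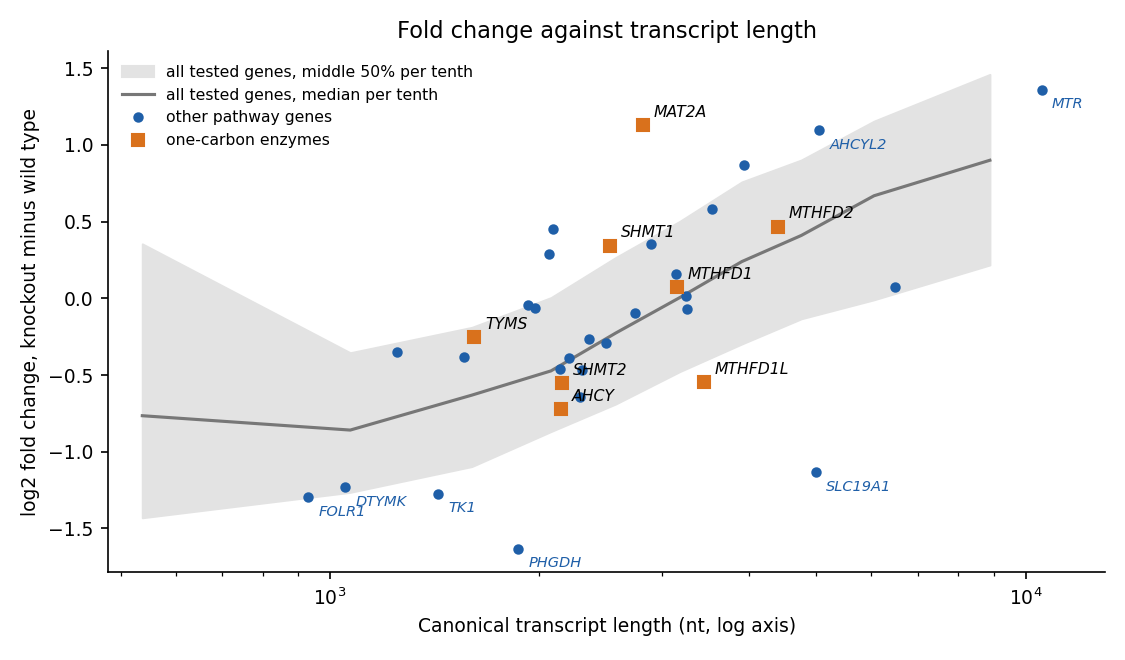
Log2 fold change of KO against WT (vertical) by canonical transcript length in nt (horizontal, log axis), with the median of each of the 10 bins of tested genes and the 8 members as named points. The medians run from -0.86 for 778 to 1350 nt to 0.90 above 7090 nt, and MAT2A lies at 1.13 where the median is -0.23.

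The other genes of the pathway were taken from a list of 38, of which 27 passed the filter. Of these, 5 (18.5%) were called lower and 2 (7.41%) higher, against 15.3% and 14.2% of all tested genes. Their median log2 fold change was -0.098. The groups below hold few tested genes each, so the calls within a group do not give it a direction. After the length and GC correction limma called 0 of the 27 in either direction, against 7.24% of all genes lower and 6.36% higher in that fit. At an unadjusted p under 0.05 it had 9 of the 27 lower (33.3%) and 6 higher (22.2%), against 33.5% and 28.2% of all genes. The 11 genes left out by the filter did not pass 0.640 FPKM in any library. Among them were MAT1A, GNMT, FTCD and ALDH1L1, which are known for high expression in adult liver, and BHMT and BHMT2 were listed at 0 throughout, beside the hepatocyte markers near 0.

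Serine supply contributed 1 of 5 tested genes called lower (20.0%, against 15.3% of all tested genes), PHGDH, which starts serine synthesis from glucose. PHGDH had 128 and 152 FPKM in WT and 42.6 and 47.5 FPKM in KO, with no overlap. It fell 3.10-fold (log2 fold change -1.63, SE 0.13, limma adjusted p = 5.38e-04), with -0.95 after rescaling to TPM and -0.93 after the length and GC correction. GCSH, a carrier protein of the glycine cleavage system and the highest gene of this group, had a log2 fold change of -0.38 (limma adjusted p = 0.0391), which was 0.30 after rescaling to TPM.

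Folate transport and retention contributed 2 of 6 called lower (33.3%, against 15.3% of all tested genes). SLC19A1, the reduced folate carrier, had 63.2 and 62.7 FPKM in WT and 29.0 and 28.3 FPKM in KO. It fell 2.19-fold (log2 fold change -1.13, SE 0.10, limma adjusted p = 5.68e-04), with -0.45 after rescaling to TPM and -0.83 after the length and GC correction, both under 2-fold. SLC19A1 shares 1156 exon bases with COL18A1 on the opposite strand, which had 6.11 and 4.83 FPKM in WT and 1.26 and 1.02 in KO. FOLR1, a folate receptor at the cell surface, fell from 3.66 and 3.79 FPKM in WT to 1.35 and 1.58 FPKM in KO (log2 fold change -1.30, limma adjusted p = 0.00197). Its call was lost after rescaling to TPM (-0.65, limma adjusted p = 0.0428), after the length and GC correction (-0.41, limma adjusted p = 0.116), with a pseudocount of 1 (-0.94) and without the filter (limma adjusted p = 0.0103). GGH, which trims folate polyglutamates and had the highest level of the group, stood at -0.35 (limma adjusted p = 0.0337) and at 0.33 after rescaling to TPM.

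Thymidylate supply also contributed 2 of 6 called lower (33.3%, against 15.3% of all tested genes). TK1, thymidine kinase, had 246 and 300.2 FPKM in WT and 108 and 117 FPKM in KO, and fell by 1.27 on the log2 scale (limma adjusted p = 9.28e-04). DTYMK, the kinase that follows TYMS, had 110.4 and 143 FPKM in WT and 54.0 and 53.1 FPKM in KO, and fell by 1.23 (limma adjusted p = 0.00116). After the length and GC correction the values were -0.32 for TK1 and -0.27 for DTYMK, and neither was called. RRM1, a ribonucleotide reductase subunit and the highest gene of the list, had 487 and 519 FPKM in WT and 549.6 and 571 FPKM in KO, a log2 fold change of 0.16 (limma adjusted p = 0.347) that was -0.077 after the correction.

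The methionine cycle, to which MAT2A and AHCY belong, contributed 2 of 5 called higher (40.0%, against 14.2% of all tested genes). MTR, methionine synthase, had 4.90 and 3.74 FPKM in WT and 11.2 and 11.1 FPKM in KO. It rose 2.57-fold (log2 fold change 1.36, SE 0.16, limma adjusted p = 0.00102), and the value was 0.42 after the length and GC correction. The MTR transcript has 10547 nt and a GC content of 45.0%. AHCYL2, an AHCY-like protein, rose from 3.02 and 2.31 FPKM to 5.36 and 6.19 FPKM (log2 fold change 1.10, limma adjusted p = 0.00335). Its call was lost after the correction (0.57), with a pseudocount of 1 (0.89) and after centring on the median (0.95). The call was also lost without the filter (limma adjusted p = 0.0171). Without WT replicate 2 the log2 fold change was 0.91, under 2-fold. MTRR, which reactivates MTR and was the highest gene of this group, stood at 0.018 (limma adjusted p = 0.925) and at -0.25 after the correction.

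Folate interconversion contributed 0 of 3 tested genes, against 15.3% of all tested genes called lower and 14.2% called higher. MTHFS, which returns a storage form of folate to the active pool and was the highest of them, had 53.8 and 67.2 FPKM in WT and 43.2 and 43.7 FPKM in KO. Its log2 fold change was -0.47 (SE 0.13, limma adjusted p = 0.0240), and 0.21 after rescaling to TPM. Neither of the 2 transsulfuration genes was called, and CTH, the higher of them, stood at 0.45 (limma adjusted p = 0.0256).

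**Figure D5:**
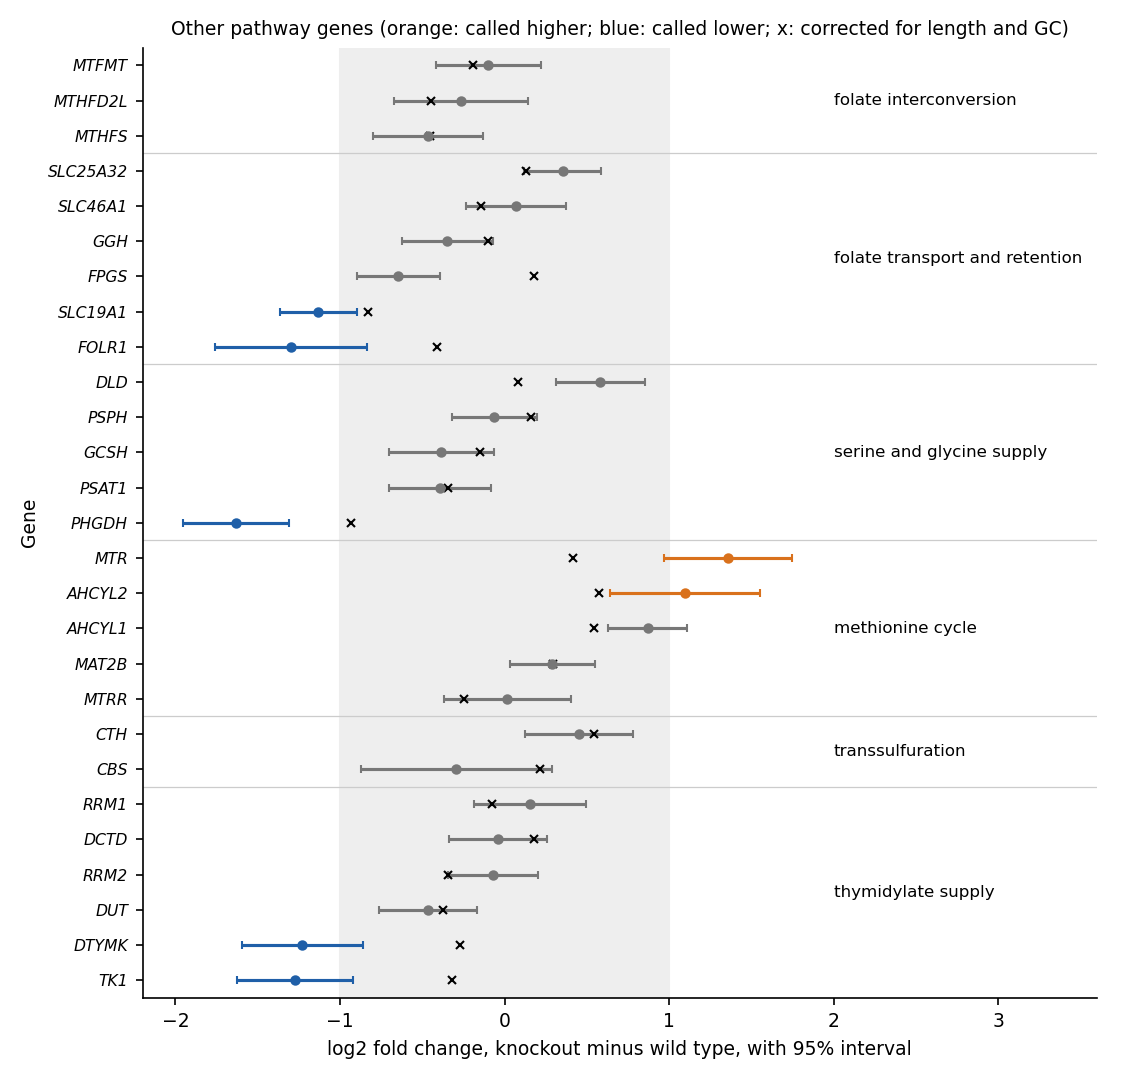
Log2 fold change of KO against WT with its 95% interval for the 27 other tested pathway genes, grouped by role, with called genes in colour and crosses for the values after the length and GC correction. Genes called lower are in serine supply, transport and thymidylate supply, and the genes called higher are MTR at 1.36 and AHCYL2 at 1.10.

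Because the study deals with MYC, whose dimers bind the letters CACGTG, the promoters were searched for that hexamer, which reads the same on both strands. RefSeq windows (GRCh38.p14), which take in 250 bases ahead of the start and 50 behind it, were matched for 7 of the 8 members and 31 of the 38 other genes. Counted by gene, the hexamer was found for 2 of the 7 members and for 2 of the 31 others. Counted by window, which is a different unit, it was in 2548 of all 35116 windows (7.26%). The stretches follow with the hexamer in capitals, MTHFD1 at chr14:64388326-64388355, MTHFD1L at chr6:150866320-150866349 and FPGS at chr9:127803093-127803122 on the plus strand, and SLC19A1 at chr21:45541797-45541826 on the minus strand.
MTHFD1: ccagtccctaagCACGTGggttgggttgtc
MTHFD1L: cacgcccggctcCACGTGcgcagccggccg
FPGS: tgggcgcgacgaCACGTGggcctgcgctga
SLC19A1: ttcgcgcccaggCACGTGttgcttcgggac

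Whether the log2 fold changes of those genes differed from each other was not tested. The log2 fold change was 0.072 for MTHFD1, -0.55 for MTHFD1L and -1.13 for SLC19A1, as given above. The interval of MTHFD1 took in changes of either sign and overlapped that of MTHFD1L. FPGS, which adds glutamates to folate and is named here for its window, had a log2 fold change of -0.65 (limma adjusted p = 0.00265), below a 2-fold change, with 0.033 after rescaling to TPM and 0.18 after the length and GC correction. Binding of MYC was not measured in these files.

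Among all tested genes, those with the pattern over the 4 libraries nearest to MAT2A were SETD2, PIP5K1A and ZBED3. Likeness was the Euclidean distance of log2(FPKM + 0.1) values centred on each gene's mean, and was 0.0442, 0.0589 and 0.0597. For AHCY, the member with the lowest log2 fold change, the nearest were ANKRD16 (0.0194), PPME1 (0.0227) and TMEM115 (0.0248). With 4 libraries in 2 groups, this measure mostly follows the difference between the groups.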

How the data were processed

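The authors selected polyadenylated RNA, mapped reads to hg38 with TopHat2 against an Ensembl annotation, keeping to annotated junctions, and deposited FPKM per gene and library from Cuffdiff in Cufflinks. Versions, library scaling and strand are not given in the sources used here. The deposited averages, fold changes, p-values and q-values of the authors' own comparison were not used.

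The table had 231916 lines, 57979 with values, and identifiers out of register with symbols. Put back in order, 56935 of them were in GENCODE release 44, and 34949 of these (61.4%) had the symbol of their line, among them all 8 members. Genes with a mean above 1 FPKM were tested as log2(FPKM + 0.1) in R 4.3.3 with limma 3.58.1 (trend in the prior variance, Benjamini-Hochberg adjustment), on all 4 libraries and without covariates. The steps were tested on simulated data.

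The members and lists were chosen with earlier results of these data known. Named were the members, every called gene of the pathway list, the highest gene of each group, TXNDC9, and the 3 genes nearest to the members with the lowest and highest log2 fold change. METTL16, FPGS and overlapping genes were added after their values were seen. A few genes first listed for the pathway, and a ratio with one of them, are not reported here. Alternatives were pseudocounts of 1 and 0.01, no filter or a mean above 5 FPKM, TPM, centring on the median, the length and GC correction (loess, span 0.3), the replicate block, no trend, an adjusted p under 0.05, leaving out each library and, chosen after seeing the data, an adjusted p under 0.01 at any fold change. The files hold no counts, so the depth is unknown and no counting intervals are given. Tables and plots were made with matplotlib 3.10.9, scipy 1.17.1, numpy 2.4.6 and pandas 2.3.3 in Python 3.11.15.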

Additional observations from a re-analysis of the deposited data

How the results depend on the processing

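Over all tested genes, 2021 lower and 1885 higher calls became 447 and 4380 after rescaling to TPM, 949 and 834 after the length and GC correction, and 965 and 857 with the replicate block as well. Higher calls made up 48.3% of all calls, 90.7% after rescaling to TPM and 35.8% after centring on the median (2601 lower and 1452 higher). With a mean above 5 FPKM 1220 were higher. The replicate block alone gave 2146 lower and 1960 higher calls and called the same number of members, 0 lower and 1 higher. The labels name no pairing of libraries. Deviations of same-numbered libraries correlated at -0.0904 over the tested genes, which does not show whether libraries were paired for a part of the genes. Leaving out 1 library gave 0 to 2633 lower and 0 to 2136 higher calls. limma made 0 calls without KO replicate 1, where 3670 genes were lower and 3459 higher at an unadjusted p under 0.05, and 0 without KO replicate 2, where there were 4013 and 3294. In these fits the lone library is assumed to vary like the other group.

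Members called higher numbered 0 without the filter (MAT2A adjusted p = 0.0122 by limma, 3 members higher at an unadjusted p under 0.05), 0 after centring (MAT2A at 0.99, 2 members higher unadjusted), 3 after rescaling to TPM, and 0 to 1 with a library left out. At any fold change with an adjusted p under 0.01, 2 members were lower and 2 higher, and 6 other pathway genes were lower and 4 higher, against 27.1% and 23.7% of all tested genes. Other pathway genes called lower numbered 0 after rescaling to TPM, against 3.37% of all genes (5 unadjusted, 18.5% against 15.8%). They numbered 0 after the length and GC correction, against 7.24% (9 unadjusted, 33.3% against 33.5%), and 0 with the replicate block added, against 7.36%. Those called higher, 2 in all, numbered 6 after rescaling to TPM, against 33.1% of all genes. With a pseudocount of 1 there was 1, against 11.4%, and without the filter 1, against 5.98%. With a mean above 5 FPKM there was 1, against 12.7%, and after centring 1, against 11.0%. After the correction there were 0, against 6.36% (6 unadjusted, 22.2% against 28.2%). With the replicate block added there were again 0, against 6.54% (5 unadjusted, 18.5% against 27.5%).

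Signs that turned after rescaling to TPM were SHMT2 0.13, MTHFD1L 0.13, TYMS 0.43, GGH 0.33, GCSH 0.30, MTHFS 0.21 and TXNDC9 0.12, and among genes added later FPGS 0.033, GGCX 0.21 and ENOSF1 0.35. After the length and GC correction, with or without the replicate block, they were MTHFD1 -0.045, MTHFD2 -0.11, TYMS 0.10, MTRR -0.25 and RRM1 -0.077, for FPGS 0.18 without the block, and for the MTHFD2 to MTHFD1 ratio -0.065. After centring they were MTHFD1 -0.071 and MTRR -0.13, and with a library left out MTHFD1 ran from -0.21 to 0.35 and MTRR from -0.17 to 0.20. The ratios moved to -0.59 for SHMT2 to SHMT1 and -1.28 for AHCY to MAT2A after the correction. Fits with a library left out rest on fewer samples, and the cause of these changes was not tested in any setting. The replicate block moved MTHFD1L to a limma adjusted p of 0.00401, still under 2-fold. Each named gene and setting was counted as 1 value, leaving out genes added later and the nearest genes by likeness. Fits with a library left out were included. By this count 259 fold changes kept direction and call, 44 lost the call, 3 gained one and 22 turned sign. A gene called in neither fit counted as kept while its sign held, whatever the size of the change.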
